A study of Mus musculus with 20 samples.

Results

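The genes described here belong to type 2 immunity and to the alternative activation of macrophages, and they were followed in the skin of mice with IL-23-induced inflammation. Members were chosen by symbol, and every probe-set of the array with 1 of these symbols as its only gene was taken. Of 10 named genes, 9 had such a probe-set, out of 18194 genes on the array, and these 9 genes had 13 of its 45101 probe-sets. Il1rl1, which encodes the receptor of IL-33, had none and was not analysed here.

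Full-thickness dorsal skin of female C57BL/6 mice, bought at 6 weeks of age, was measured with 1 Affymetrix array per mouse in 4 groups of 5 mice. Mice of 3 groups had received intradermal IL-23 in daily doses of 3 µg on days 1 to 4, followed on days 4, 5 and 6 by IMO-8400, an oligonucleotide antagonist of TLR7, TLR8 and TLR9, by IMO-3100, an antagonist of TLR7 and TLR9, or by saline. Both antagonists were given subcutaneously at 15 mg/kg, away from the lesion, and skin was taken on day 7. The naïve mice had normal skin, and since the sources do not say that they received a sham injection, the injections and IL-23 itself cannot be told apart. The record of the whole series speaks of 2 doses of 1 antagonist, whereas the records of the single samples name both compounds, and the sample records were followed here.

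Type 2 immunity is the arm of the immune system that answers worms, venoms and allergens. Injured or stressed epithelium releases alarmins such as IL-33 and TSLP, which prompt innate lymphoid cells, mast cells, basophils and Th2 cells to make IL-4 and IL-13. These cytokines act through receptors that share the IL-4 receptor alpha chain and the transcription factor STAT6, and in mouse macrophages they induce arginase 1, the chitinase-like protein Ym1 (Chil3), the resistin-like molecule RELMα (Retnla) and lectins such as Mgl2, the usual markers of alternative activation.

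Members fell into groups with different patterns. Chil3, Il33, Il13ra2 and Il13ra1 (on probe-set 1451775_s_at) were higher in saline mice than in naïve mice and lower in both antagonist groups than in saline mice. Retnla and Mgl2 were far lower in saline mice than in naïve mice, and neither antagonist group differed from saline mice beyond the test. Tslp was lower in saline mice than in naïve mice and higher in IMO-8400 mice than in saline mice. Arg1 did not differ detectably between saline and naïve mice and was lower in IMO-8400 mice than in saline mice, while Il4 stayed low in all mice, with a highest value of 3.02.

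Values are deposited log2 GCRMA values, on which 1 unit is a doubling of the signal, and the lowest value of every array was 2.02. All 4 groups entered 1 limma model, fitted over 30960 probe-sets. A probe-set was called where its FDR was under 0.05 and its fold change (FCH) over 2. Of the 13 member probe-sets 12 were tested, and 1 probe-set of Il13ra1, which read 2.02 after rounding to 2 decimals in all 20 arrays, was not. The comparisons against saline and the comparison of saline with naïve mice share the 5 saline arrays, so their values are not independent. Because whole skin was measured, fewer cells of a type and less RNA per cell cannot be told apart.

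The promoters of 4 members that the results turn on are shown first, 250 bases up to the RefSeq start of the gene in GRCm38.p6. Chil3, Il33 and Il13ra2 were higher in saline than in naïve mice and Retnla was lower, and of the windows of such members these are the ones that held a match. The windows of Il13ra1, which was higher too, and Mgl2, which was lower too, held none and are not shown, and neither is the second window of Il33, which held none. Capitals mark matches to 3 motifs searched on both strands, which are the STAT6-type motif (TTC and GAA parted by 4 bases of any kind), the STAT-type motif TTCNNNGAA and the AP-1-type motif TGANTCA.
Chil3, chr3:106167565-106167814, minus strand: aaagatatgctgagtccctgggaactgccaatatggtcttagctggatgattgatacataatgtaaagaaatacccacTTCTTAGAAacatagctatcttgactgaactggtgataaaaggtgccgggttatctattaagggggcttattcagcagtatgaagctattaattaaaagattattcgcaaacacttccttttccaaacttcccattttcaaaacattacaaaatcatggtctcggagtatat
Il33, chr19:29924863-29925112, plus strand: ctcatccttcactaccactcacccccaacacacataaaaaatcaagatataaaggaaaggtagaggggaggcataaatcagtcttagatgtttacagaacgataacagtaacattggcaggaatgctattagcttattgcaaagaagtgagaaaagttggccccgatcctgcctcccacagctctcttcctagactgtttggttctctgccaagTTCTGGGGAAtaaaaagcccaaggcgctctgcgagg
Il13ra2, chrX:147429193-147429442, minus strand: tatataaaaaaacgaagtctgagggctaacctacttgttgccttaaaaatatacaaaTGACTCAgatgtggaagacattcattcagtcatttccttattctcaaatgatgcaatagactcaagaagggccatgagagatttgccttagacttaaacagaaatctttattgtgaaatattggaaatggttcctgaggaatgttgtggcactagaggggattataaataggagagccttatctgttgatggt
Retnla, chr16:48842359-48842608, plus strand: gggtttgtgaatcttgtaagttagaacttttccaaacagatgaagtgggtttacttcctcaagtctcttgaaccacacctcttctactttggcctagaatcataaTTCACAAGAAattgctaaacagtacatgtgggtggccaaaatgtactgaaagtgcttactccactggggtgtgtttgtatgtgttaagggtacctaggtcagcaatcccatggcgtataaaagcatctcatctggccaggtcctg

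The match in Chil3 began 172 bases before the start and followed the STAT-type motif. Il33 held a STAT6-type match 36 bases before the start, and Retnla held one 145 bases before it. Il13ra2 held an AP-1-type match 193 bases before the start. Of 32807 promoter windows of the same length, 5.85% held the STAT6-type motif, 7.02% the STAT-type motif and 6.75% the AP-1-type motif. Over all members, 7 had 9 windows in the table and 5 of these windows held a match, the fifth being 1 of the 2 windows of Il4. The share of all windows with a match to any of these motifs was not computed, so the member count has no share beside it. A match describes letters only and says nothing of binding.

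**Figure D1:**
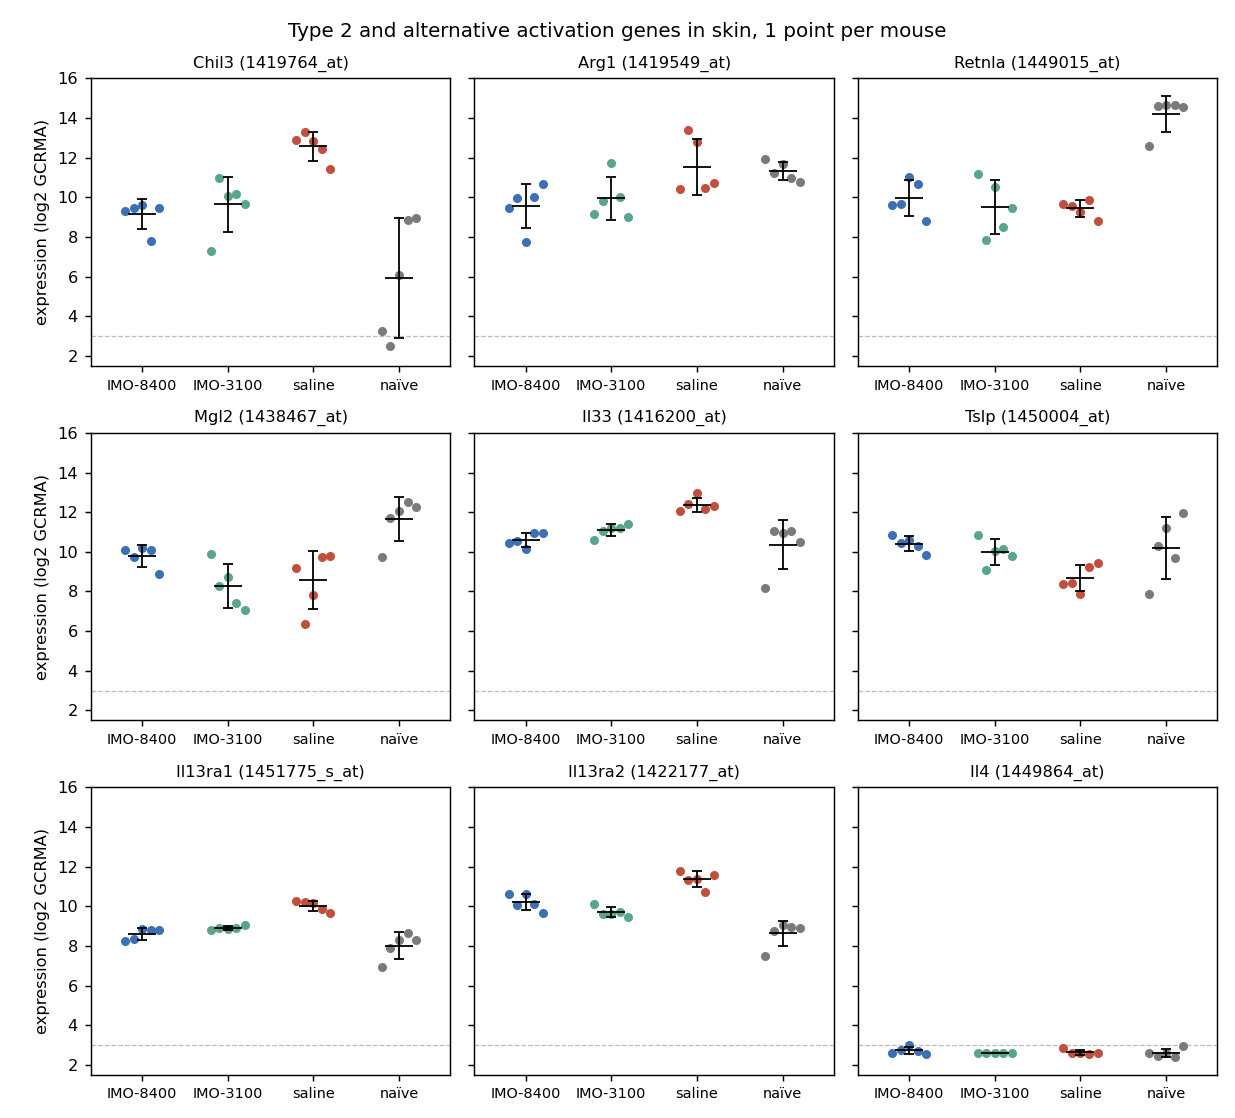
Expression (log2 GCRMA, vertical axis) of 9 members in IMO-8400, IMO-3100, saline and naïve mice, with 1 point per mouse and bars for the mean ± SD (n = 5). The dashed line at 3 marks the level under which values were read as near background. Saline mice sit above the other groups for Il33, Chil3, Il13ra2 and the plotted probe-set of Il13ra1 (1451775_s_at), and naïve mice sit above the other groups for Retnla.

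The question put to saline and naïve mice was which of these genes differ in IL-23-injected skin. Of 12 tested member probe-sets 8 were called, from 7 genes, against 16.5% of all tested probe-sets. Of these 5 were higher and 3 lower in saline mice, against 7.58% and 8.92% of all tested probe-sets. The values of saline and naïve mice did not overlap for 8 member probe-sets, against 24.9% of all. The median log2 difference of the members was 0.52, beside -0.04 over all tested probe-sets. Members were chosen with earlier results of these data known. Member counts and medians, here and below, are therefore descriptions and no test of the members as a set.

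Among the alarmins, Il33 encodes a nuclear cytokine that injured epithelial and stromal cells release. Its values were 12.06, 12.42, 12.96, 12.15 and 12.30 in saline mice, against 8.19, 11.07, 10.95, 11.07 and 10.50 in naïve mice. Every saline mouse lay above every naïve mouse, and 1 naïve mouse lay well below the other naïve mice. Il33 was thus 4.05-fold higher in saline mice (log2 FCH 2.02, SE 0.41, adjusted p = 0.000658 in limma). With the mean of hair follicle genes as a covariate the log2 difference was 1.36 and was no longer called (adjusted p = 0.0631 in limma). This mean lay between 3.17 and 3.53 in saline mice and between 3.92 and 12.94 in naïve mice, without overlap. The slope on hair genes thus rests mainly on the naïve mice, and the adjusted difference reaches beyond a range that both groups share. Whether hair content accounts for any difference, here or below, was not tested.

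Tslp encodes thymic stromal lymphopoietin, a cytokine of keratinocytes that primes dendritic cells for type 2 responses. It read 8.38, 8.43, 7.86, 9.22 and 9.43 in saline mice, against 7.87, 10.28, 11.21, 9.68 and 11.95 in naïve mice. Groups overlapped, since the lowest naïve mouse lay at the level of the lowest saline mouse. Tslp was 2.90-fold lower in saline mice (log2 FCH -1.53, SE 0.55, adjusted p = 0.0297 in limma). This call was lost without 1 mouse in 6 of 10 cases, which were saline replicates 1, 2 and 3 and naïve replicates 2, 3 and 5, with log2 differences over all 10 cases between -2.12 and -1.10 and adjusted p in limma of up to 0.0913. It was -2.28 without naïve replicates 1 and 2 and -2.84 with hair genes as a covariate.

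Il4, the cytokine that gives alternative activation its usual stimulus, lay between 2.40 and 3.02 over all 20 arrays. Only 1 value, in an IMO-8400 mouse, reached 3. No fold change is given for it, and its protein was not measured.

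IL-13 and IL-4 are read by receptor chains, of which Il13ra1 pairs with the IL-4 receptor alpha chain to signal, whereas Il13ra2 binds IL-13 with high affinity and is best known as a decoy. Il13ra2 read 11.80, 11.35, 11.37, 10.74 and 11.58 in saline mice, against 7.51, 8.74, 9.08, 8.94 and 8.91 in naïve mice. Both groups were clearly apart. The rise in saline mice was 6.64-fold (log2 FCH 2.73, SE 0.27, adjusted p = 5.46e-07 in limma), and it kept its call in every alternative run, with a log2 FCH of 2.09 when hair genes were a covariate.

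Il13ra1 had 5 probe-sets, which did not behave alike. On 1451775_s_at its values were 10.25, 10.20, 10.16, 9.86 and 9.64 in saline mice, against 6.92, 7.92, 8.29, 8.66 and 8.31 in naïve mice. The difference was 4.01-fold (log2 FCH 2.00, SE 0.24, adjusted p = 4.31e-06 in limma), and with hair genes as a covariate log2 FCH was 1.398. On 1427164_at it was 3.36-fold (log2 FCH 1.75, adjusted p = 2.64e-06 in limma). On 1454783_at and 1427165_at, the pair with the higher signal, the log2 differences were 0.50 and 0.54 (adjusted p = 0.0296 and 0.0154 in limma), which is under the fold limit. The remaining probe-set, 1425625_at, read 2.02 in every mouse after rounding to 2 decimals.

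**Figure D2:**
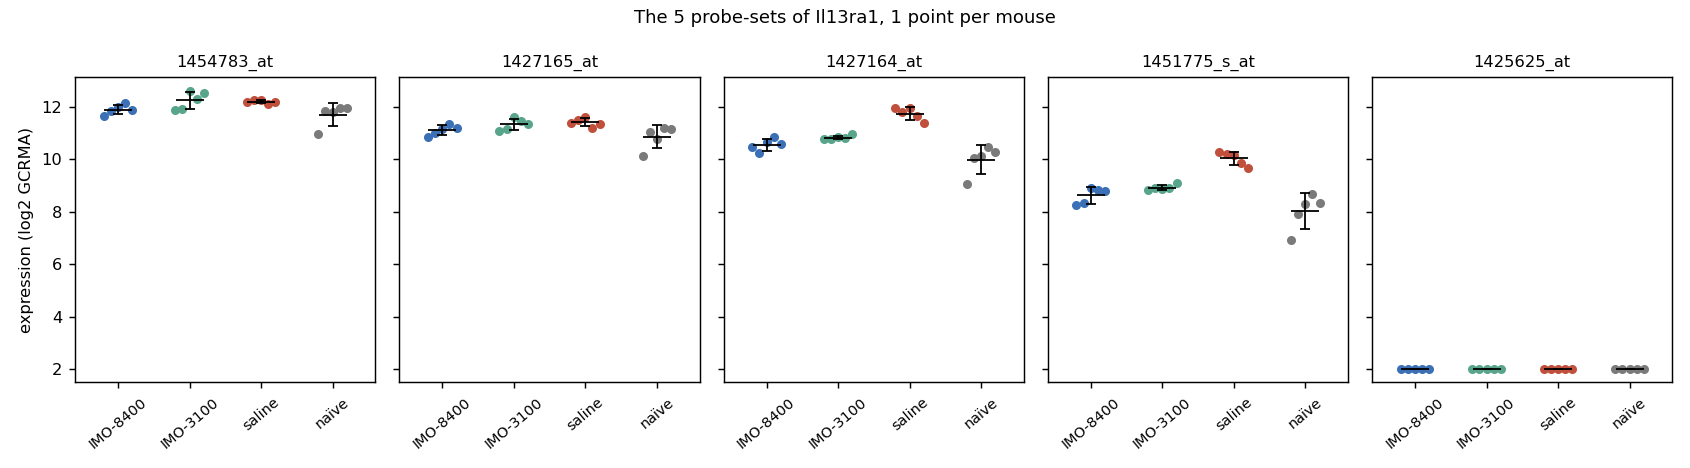
Expression (log2 GCRMA, vertical axis) on the 5 probe-sets of Il13ra1 in IMO-8400, IMO-3100, saline and naïve mice, with 1 point per mouse and bars for the mean ± SD (n = 5). On 1427164_at and 1451775_s_at all saline mice sit above the other groups, while on 1454783_at and 1427165_at the saline and antagonist mice overlap and 1425625_at stays at 2.02.

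How far these probe-sets parted was measured per mouse as the mean of 1451775_s_at and 1427164_at minus the mean of 1454783_at and 1427165_at, a contrast formed because the pairs were seen to differ in these mice, so it is given as a description with no test. It averaged -0.92 ± 0.21 in saline mice and -2.27 ± 0.22 in naïve mice (SD, n = 5 each). The difference was 1.36. It was -1.90 ± 0.13 in IMO-8400 mice, -1.91 ± 0.24 in IMO-3100 mice and, as above, -0.92 ± 0.21 in saline mice (SD, n = 5 each). The difference from saline mice was -0.987 with IMO-8400 and -0.996 with IMO-3100. Across the 20 arrays the probe-sets of the first pair correlated at r = 0.99 and those of the second at r = 0.94, and across the pairs r lay between 0.72 and 0.81, over arrays that share their 4 groups. Which transcripts each probe-set detects was not tested.

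Macrophage genes of alternative activation moved in opposite directions. Chil3, which encodes the chitinase-like protein Ym1 of mouse macrophages and neutrophils, read 12.91, 13.32, 12.85, 12.42 and 11.42 in saline mice, against 3.28, 2.52, 6.09, 8.84 and 8.98 in naïve mice. All saline mice were far above the naïve mice, which differed widely among themselves. The fitted rise was 99.9-fold (log2 FCH 6.64, SE 1.03, adjusted p = 6.34e-05 in limma). Its size depends in part on the lowest value of the arrays, since 1 naïve mouse lay below 3. Without 1 naïve mouse it moved to log2 FCH 5.98 (replicate 1), 5.79 (replicate 2), 7.37 (replicate 4) or 7.40 (replicate 5), without naïve replicates 1 and 2 to 4.61, and with hair genes as a covariate to 3.30, and it kept its call in each case.

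Retnla, which encodes RELMα, a secreted protein of alternatively activated mouse macrophages that is also made in skin and fat, went the other way. It read 9.67, 9.59, 9.27, 9.89 and 8.81 in saline mice, against 12.60, 14.60, 14.64, 14.67 and 14.54 in naïve mice. No saline mouse came within 2 log2 units of a naïve mouse. The fall was 27.1-fold (log2 FCH -4.76, SE 0.57, adjusted p = 4.47e-06 in limma), and with hair genes as a covariate it was -5.75.

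Mgl2, a C-type lectin that marks alternatively activated macrophages and a dermal dendritic cell subset in mice, also fell. It read 9.18, 6.35, 7.84, 9.75 and 9.77 in saline mice, against 9.72, 11.69, 12.06, 12.49 and 12.25 in naïve mice. A single naïve mouse, the one lowest for Retnla and Il33 as well, lay within the saline range. The fall was 8.36-fold (log2 FCH -3.06, SE 0.66, adjusted p = 0.00112 in limma). Without naïve replicates 1 and 2 it was -3.69, and with hair genes as a covariate -4.30.

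Arg1 encodes arginase 1, which turns arginine into ornithine and urea. It read 10.41, 13.38, 12.78, 10.47 and 10.73 in saline mice, against 11.93, 11.24, 11.68, 11.00 and 10.80 in naïve mice. Saline mice split around the naïve values, with 2 above all of them and 3 below. The log2 difference was 0.22 (SE 0.64, interval -1.11 to 1.56, adjusted p = 0.798 in limma).

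The next comparisons asked how the antagonists changed these levels in IL-23-injected skin. With IMO-8400, 7 of the 12 tested member probe-sets were called against saline, from 6 genes, beside 8.04% of all tested probe-sets. Of these 1 was higher and 6 were lower, beside 4.46% and 3.59%, and groups did not overlap for 6 member probe-sets, beside 25.3% of all. With IMO-3100, 4 of 12 were called, all lower, beside 6.42% of all in either direction, 2.69% higher and 3.73% lower. Here groups did not overlap for 5 member probe-sets, beside 20.1% of all. The median log2 difference of the members was -0.73 with IMO-8400 and -0.61 with IMO-3100, beside 0.01 over all tested probe-sets in both comparisons.

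**Figure D3:**
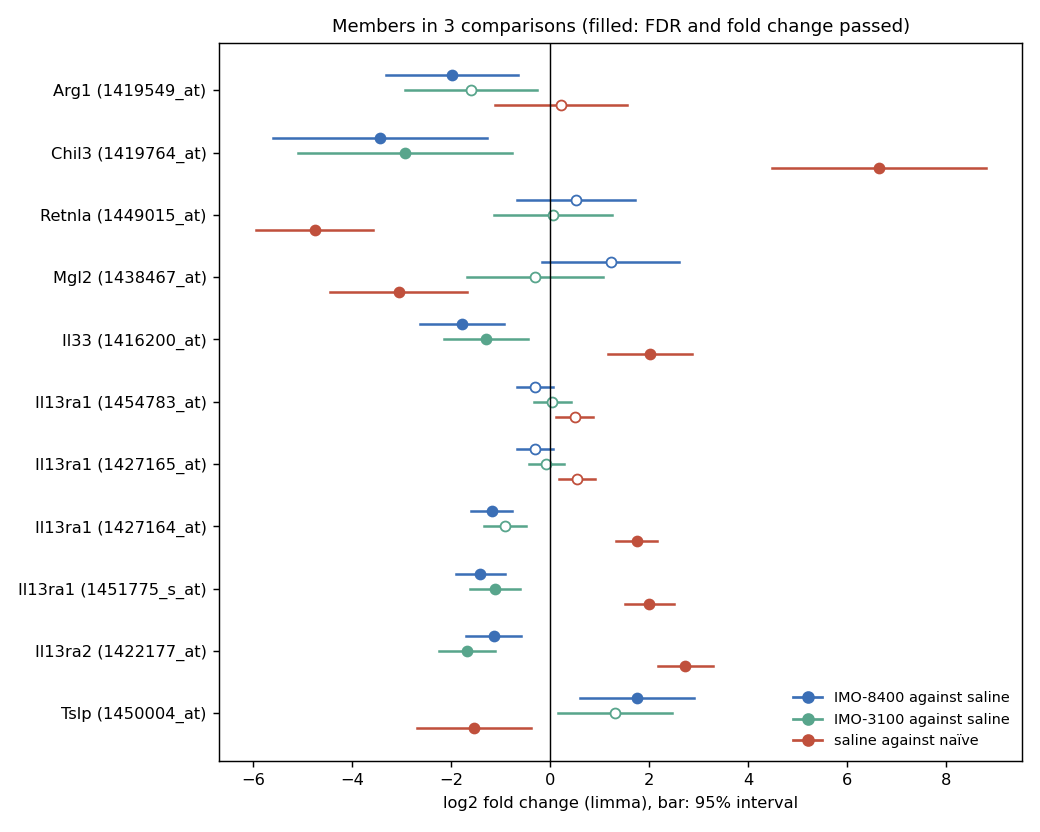
Log2 fold change (horizontal axis) of 11 member probe-sets for IMO-8400 against saline, IMO-3100 against saline and saline against naïve mice, from limma, with bars for the 95% interval (n = 5 mice per group) and filled points where FDR and fold change passed. Chil3, Il33, Il13ra2 and Il13ra1 (1451775_s_at) lie right of 0 for saline against naïve and left of 0 for both antagonists, and Retnla and Mgl2 have a filled point for saline against naïve only.

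Il33 read 10.45, 10.54, 10.12, 10.93 and 10.94 in IMO-8400 mice and 10.61, 11.05, 11.19, 11.20 and 11.39 in IMO-3100 mice, against 12.06, 12.42, 12.96, 12.15 and 12.30 in saline mice. No mouse of either antagonist group reached the lowest saline mouse. Il33 was 3.43-fold lower with IMO-8400 (log2 FCH -1.78, SE 0.41, adjusted p = 0.00366 in limma) and 2.44-fold lower with IMO-3100 (log2 FCH -1.29, adjusted p = 0.025 in limma). The call with IMO-3100 was lost without IMO-3100 replicate 1 (log2 FCH -1.17, adjusted p = 0.0582 in limma) or saline replicate 3 (log2 FCH -1.14, adjusted p = 0.0689 in limma).

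Tslp moved against Il33 in these mice. It read 10.84, 10.45, 10.62, 10.31 and 9.85 in IMO-8400 mice and 10.87, 9.07, 10.04, 10.12 and 9.78 in IMO-3100 mice, against 8.38, 8.43, 7.86, 9.22 and 9.43 in saline mice. All IMO-8400 mice were above all saline mice, while 1 IMO-3100 mouse lay within the saline range. Tslp was 3.36-fold higher with IMO-8400 (log2 FCH 1.75, SE 0.55, adjusted p = 0.0236 in limma). Without IMO-8400 replicate 1 (log2 FCH 1.64, adjusted p = 0.0559 in limma) or saline replicate 3 (log2 FCH 1.55, adjusted p = 0.0655 in limma) this call was lost. With IMO-3100 the log2 difference was 1.31 and did not pass (adjusted p = 0.0846 in limma), although it passed when only these groups were fitted (adjusted p = 0.031), without naïve replicates 1 and 2 (adjusted p = 0.0216) and with hair genes as a covariate (adjusted p = 0.0429 in limma).

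Il13ra2 read 10.62, 10.09, 10.63, 10.12 and 9.67 in IMO-8400 mice and 10.11, 9.62, 9.60, 9.70 and 9.44 in IMO-3100 mice, against 11.80, 11.35, 11.37, 10.74 and 11.58 in saline mice. Both antagonist groups lay wholly below the saline mice. The decoy receptor was 2.21-fold lower with IMO-8400 (log2 FCH -1.15, SE 0.27, adjusted p = 0.00439 in limma) and 3.19-fold lower with IMO-3100 (log2 FCH -1.68, adjusted p = 0.000372 in limma). These calls held in every alternative run.

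The signalling chain Il13ra1 read 8.23, 8.33, 8.88, 8.83 and 8.79 in IMO-8400 mice and 8.82, 8.90, 8.85, 8.90 and 9.07 in IMO-3100 mice on 1451775_s_at, against 10.25, 10.20, 10.16, 9.86 and 9.64 in saline mice. The IMO-3100 mice were close to one another. The probe-set was 2.65-fold lower with IMO-8400 (log2 FCH -1.41, adjusted p = 0.00046 in limma) and 2.17-fold lower with IMO-3100 (log2 FCH -1.11, adjusted p = 0.00271 in limma). On 1427164_at the falls were 2.26-fold with IMO-8400 (adjusted p = 0.000442 in limma), which was called, and 1.88-fold with IMO-3100 (adjusted p = 0.00303 in limma), which did not reach the fold limit. On the pair with the higher signal, log2 differences lay between -0.31 and 0.04 and none passed.

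Chil3 read 9.33, 9.47, 9.63, 7.80 and 9.47 in IMO-8400 mice and 7.31, 10.99, 10.05, 10.18 and 9.68 in IMO-3100 mice, against 12.91, 13.32, 12.85, 12.42 and 11.42 in saline mice. Every mouse given an antagonist was below every saline mouse. The gene was 10.9-fold lower with IMO-8400 (log2 FCH -3.44, SE 1.03, adjusted p = 0.0187 in limma) and 7.68-fold lower with IMO-3100 (log2 FCH -2.94, adjusted p = 0.0415 in limma). The call with IMO-8400 held without any 1 mouse, with adjusted p in limma of up to 0.0497. The call with IMO-3100 was lost without 1 mouse in 8 of 10 cases, all but IMO-3100 replicate 2 and saline replicate 5, with log2 differences between -3.28 and -2.36 and adjusted p in limma of up to 0.11.

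For Arg1 the values were 9.47, 9.95, 7.75, 10.00 and 10.68 in IMO-8400 mice and 9.15, 9.81, 11.75, 10.03 and 9.03 in IMO-3100 mice, against 10.41, 13.38, 12.78, 10.47 and 10.73 in saline mice. Groups overlapped, because 3 saline mice lay near the antagonist mice. Arg1 was 3.95-fold lower with IMO-8400 (log2 FCH -1.98, SE 0.64, adjusted p = 0.0269 in limma). The call was lost without IMO-8400 replicate 1 (adjusted p = 0.0524), IMO-8400 replicate 3 (adjusted p = 0.0763), saline replicate 2 (log2 FCH -1.52, adjusted p = 0.081) or saline replicate 3 (adjusted p = 0.0788 in limma). With IMO-3100 the log2 difference was -1.60 and did not pass (adjusted p = 0.0709 in limma), and it passed without IMO-3100 replicate 3 (log2 FCH -2.05, adjusted p = 0.029) or saline replicate 1 (log2 FCH -1.88, adjusted p = 0.0438 in limma).

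Retnla and Mgl2 gave no call against saline. Retnla read 9.63, 9.65, 11.05, 10.67 and 8.82 in IMO-8400 mice and 11.17, 7.87, 10.53, 8.51 and 9.44 in IMO-3100 mice, against 9.67, 9.59, 9.27, 9.89 and 8.81 in saline mice. Saline mice lay within the range of the IMO-3100 mice. Its log2 difference was 0.51 with IMO-8400 (interval -0.67 to 1.70, adjusted p = 0.536 in limma) and 0.06 with IMO-3100 (interval -1.13 to 1.25, adjusted p = 0.98 in limma). Mgl2 read 10.09, 9.74, 10.21, 10.10 and 8.87 in IMO-8400 mice and 9.87, 8.27, 8.73, 7.42 and 7.09 in IMO-3100 mice, against 9.18, 6.35, 7.84, 9.75 and 9.77 in saline mice. Groups overlapped, with log2 differences of 1.22 with IMO-8400 (interval -0.16 to 2.60, adjusted p = 0.174 in limma) and -0.30 with IMO-3100 (interval -1.68 to 1.08, adjusted p = 0.795 in limma).

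Both antagonists were compared with each other at the same dose and days. None of 12 member probe-sets was called in limma, beside 0.578% of all tested probe-sets in either direction, 0.333% higher and 0.245% lower with IMO-8400. Only 1, Mgl2, had an unadjusted p under 0.05. Groups did not overlap for 0 members, beside 9.65% of all. The log2 difference of Mgl2 between IMO-8400 and IMO-3100 mice was 1.53 (interval 0.15 to 2.90, adjusted p = 0.187 in limma). For the other members the intervals were wide enough to hold differences of some size, as from -2.66 to 1.66 for Chil3, from -1.34 to 0.36 for Il33 and from -0.03 to 1.09 for Il13ra2. The median log2 difference of the members was -0.25, beside 0.02 over all tested probe-sets.

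Antagonist-treated skin was also set against naïve skin. IMO-8400 mice had 3 member probe-sets called, 2 higher and 1 lower, beside 6.03% of all tested probe-sets in either direction, 3.6% higher and 2.43% lower. IMO-3100 mice had 4, of which 2 were higher and 2 lower, beside 9.44%, 4.9% and 4.55%. Groups did not overlap for 3 members with IMO-8400, beside 11.7% of all, and for 4 with IMO-3100, beside 16.2%. The median log2 differences of the members were 0.23 with IMO-8400 and 0.50 with IMO-3100, beside -0.03 and -0.05 over all tested probe-sets.

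Retnla lay far below the naïve level in both, by log2 FCH -4.25 with IMO-8400 (adjusted p = 7.62e-05) and -4.70 with IMO-3100 (adjusted p = 1.67e-05 in limma). With hair genes as a covariate these were -5.09 with IMO-8400 and -5.70 with IMO-3100. Il13ra2 was above it by log2 FCH 1.59 with IMO-8400 (adjusted p = 0.000635) and 1.06 with IMO-3100 (adjusted p = 0.00726 in limma). The call with IMO-3100 was lost below the fold limit without IMO-3100 replicate 1 (log2 FCH 0.95) or naïve replicate 1 (log2 FCH 0.77), and it was also lost without naïve replicates 1 and 2 (log2 FCH 0.72) and with hair genes as a covariate (log2 FCH 0.42). Mgl2 was lower with IMO-3100 (log2 FCH -3.37, adjusted p = 0.00122 in limma, and -3.99 without naïve replicates 1 and 2 or -4.61 with hair genes as a covariate). With IMO-8400 its difference of -1.84 did not pass (adjusted p = 0.06) but passed without naïve replicate 1 (log2 FCH -2.32, adjusted p = 0.0171), without naïve replicates 1 and 2 (-2.46, adjusted p = 0.0282) and with hair genes as a covariate (-2.89, adjusted p = 0.0273 in limma).

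Chil3 was above naïve skin by log2 FCH 3.20 with IMO-8400 (adjusted p = 0.0386) and 3.70 with IMO-3100 (adjusted p = 0.0127 in limma), and the groups overlapped. Fitted on the 2 groups alone neither was called (adjusted p = 0.143 with IMO-8400 and 0.0935 with IMO-3100 in limma), and the call with IMO-8400 was also lost without a filter (adjusted p = 0.0742) and with values under 4 set to 4 (log2 FCH 2.76, adjusted p = 0.0547 in limma). Neither was called without naïve replicates 1 and 2, when log2 FCH was 1.17 with IMO-8400 (adjusted p = 0.333) and 1.67 with IMO-3100 (adjusted p = 0.127 in limma). With hair genes as a covariate log2 FCH was 0.37 with IMO-8400 (adjusted p = 0.862) and 0.35 with IMO-3100 (adjusted p = 0.885 in limma), and neither was called. With 1 mouse left out the call with IMO-8400 was lost without naïve replicate 1 (log2 FCH 2.53) or replicate 2 (log2 FCH 2.34), and in all it was lost without 1 mouse in 7 of 10 cases. Without 1 naïve mouse log2 FCH lay between 2.34 and 3.96 with IMO-8400 and between 2.84 and 4.46 with IMO-3100.

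The log2 differences of Il33 from naïve skin were 0.24 with IMO-8400 (interval -0.61 to 1.09, adjusted p = 0.723 in limma) and 0.73 with IMO-3100 (interval -0.12 to 1.58, adjusted p = 0.19 in limma). Neither passed, and both intervals reached beyond 1 log2 unit. With IMO-3100 Il13ra1 was above every naïve mouse, by 0.89 on 1451775_s_at (adjusted p = 0.0101) and 0.84 on 1427164_at (adjusted p = 0.00476 in limma), under the fold limit. With IMO-8400 these differences were 0.60 and 0.57, with overlap (adjusted p = 0.0901 and 0.0545 in limma). Arg1 lay below every naïve mouse in every IMO-8400 mouse, and its log2 difference of -1.76 did not pass (adjusted p = 0.0636 in limma). Its difference of -1.38 with IMO-3100, where the groups overlapped, did not pass either (adjusted p = 0.116 in limma). For Tslp the differences were 0.22 with IMO-8400 (interval -0.93 to 1.37) and -0.22 with IMO-3100 (interval -1.37 to 0.93), and neither passed. These moved to -0.53 with IMO-8400 and -0.97 with IMO-3100 without naïve replicates 1 and 2, and to -0.89 with IMO-8400 and -1.54 with IMO-3100 with hair genes as a covariate, still without passing.

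Other genes of the pathway were taken from 4 lists and described by counts. Of cytokines and receptors of type 2 immunity 12 of 18 genes were tested, while Il5, Il9, Il25, Il31, Il5ra and Socs1 lay near background in all groups. In saline mice 5 were higher than in naïve mice and 2 lower. Il10 (log2 FCH 3.24), Il7r (2.25), Il4ra (1.74), Crlf2 (1.23) and Osmr (1.03) were higher, and Il31ra (-1.42) and Gata3 (-1.06) lower. The size for Il10 rests on a naïve mean of 4.70 (SD 2.40) with 2 of 5 mice below 3. Saline and naïve mice overlapped for Il10, Il4ra and Il31ra. Il7r and Crlf2 form the TSLP receptor, Gata3 is the lineage factor of Th2 cells and type 2 innate lymphoid cells, and Il10 and Osmr serve responses beyond type 2. Gata3 averaged 11.11 in saline and 12.17 in naïve mice. Of 7 T cell and innate lymphoid markers 4 were called higher in saline mice and 0 lower. Cd4, which was called, averaged 10.03 in saline and 6.89 in naïve mice. Rora, which was not called, averaged 11.96 and 12.46, the direction of Gata3. Which cells of the skin held the Gata3 signal was not tested.

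The IL-4 receptor alpha chain Il4ra was the only gene of this list called against saline with either antagonist. It read 10.48, 10.53, 10.55, 10.05 and 10.76 in IMO-8400 mice and 10.83, 11.00, 10.45, 10.30 and 10.31 in IMO-3100 mice, against 11.73, 12.01, 12.28, 11.81 and 11.90 in saline mice. Both antagonist groups lay below all saline mice. The log2 FCH was -1.47 with IMO-8400 (adjusted p = 0.00428) and -1.37 with IMO-3100 (adjusted p = 0.0075 in limma). The median over the 12 genes was -0.14 with IMO-8400 and -0.09 with IMO-3100. Osmr was lower than in saline mice with IMO-8400 (-0.78, adjusted p = 0.000848) and IMO-3100 (-0.79, adjusted p = 0.000961 in limma). Gata3 was higher with IMO-8400 (0.80, adjusted p = 0.00092 in limma). These differences were without overlap but did not reach the fold limit. Stat6, the transcription factor downstream of Il4ra, was not called in any comparison (log2 difference 0.27 in saline against naïve mice), nor was Il1rap, the shared signalling chain of the IL-33 receptor (0.49).

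Of type 2 chemokines and their receptors 7 genes were tested. Ccl11 (log2 FCH 1.39), the eosinophil chemoattractant eotaxin-1, and Ccl22 (1.12), a CCR4 ligand, were higher in saline than in naïve mice. Ccl24, eotaxin-2, was called lower (adjusted p = 0.000171 in limma), with a mean of 2.63 in saline mice, of which 4 of 5 lay below 3, and 6.19 in naïve mice, and no fold change is given for it. With IMO-3100 Ccl17, the other CCR4 ligand, was called lower than in saline mice (log2 FCH -2.27, adjusted p = 0.0122 in limma), and with IMO-8400 no gene was called in limma, though 2 had an unadjusted p under 0.05. Ccl17 read 7.01, 7.31, 10.21, 7.90 and 7.70 in IMO-8400 mice and 6.79, 6.89, 6.72, 6.79 and 5.57 in IMO-3100 mice, against 8.88, 7.46, 8.32, 8.88 and 10.60 in saline mice. In the IMO-8400 group 1 mouse lay far above the other 4.

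Of other alternative activation genes 21 were tested, and 5 were higher and 5 lower in saline than in naïve mice. The higher ones were Chil1 (log2 FCH 5.12), a chitinase-like relative of Chil3, Pdcd1lg2 (4.50), which encodes the PD-1 ligand PD-L2, the scavenger receptor Msr1 (3.31), the macrophage elastase Mmp12 (2.84) and the lipoxygenase Alox15 (2.21). The lower ones were the lectins Cd209b (-1.80), Cd209a (-1.72) and Clec10a (-1.002), the haemoglobin scavenger receptor Cd163 (-1.35) and the transcription factor Irf4 (-1.16). Saline and naïve mice overlapped for all 5 lower genes and for none of the higher ones. Mmp12 was only just without overlap, with a lowest saline value of 8.41 and a highest naïve value of 8.40. The mannose receptor Mrc1 was not called (log2 difference -0.19, adjusted p = 0.454 in limma). The list so held called genes in both directions, with a median of -0.20. The size for Pdcd1lg2 rests on a naïve mean of 3.00 with 2 of 5 mice below 3.

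Pdcd1lg2 and Alox15 were the genes of this list called between the antagonists. Pdcd1lg2 read 5.47, 6.03, 6.14, 4.07 and 5.71 in IMO-8400 mice, against 7.24, 6.83, 7.02, 6.53 and 6.71 in IMO-3100 mice, without overlap (log2 FCH -1.38, adjusted p = 0.0268 in limma). Alox15 read 6.44, 5.39, 6.3, 4.04 and 4.90 in IMO-8400 mice, against 3.41, 2.95, 3.33, 2.34 and 4.85 in IMO-3100 mice, with overlap (log2 FCH 2.04, adjusted p = 0.0364 in limma). So the first was lower and the second higher with IMO-8400. Against saline mice Alox15 was lower with IMO-8400 (log2 FCH -1.49, adjusted p = 0.0378) and with IMO-3100 (log2 FCH -3.53, adjusted p = 0.000191 in limma). The sizes for Alox15 that involve IMO-3100 mice rest on a mean of 3.38 in that group, with 2 of 5 mice below 3. Pdcd1lg2 was lower with IMO-8400 (log2 FCH -2.01, adjusted p = 0.000309) and Mmp12 with IMO-3100 (log2 FCH -1.57, adjusted p = 0.0263 in limma).

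Around Arg1, 9 genes of arginine and polyamine metabolism were tested and 0 were called in limma between saline and naïve mice, though 5 had an unadjusted p under 0.05. With IMO-3100 the spermidine synthase gene Srm was lower than in saline mice (log2 FCH -1.01, adjusted p = 0.0025 in limma), and with IMO-8400 its difference of -0.93 did not reach the fold limit (adjusted p = 0.00373 in limma). Arg2, the mitochondrial arginase, had log2 differences of 0.03 with IMO-8400 and 0.30 with IMO-3100 against saline, and neither passed.

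**Figure D4:**
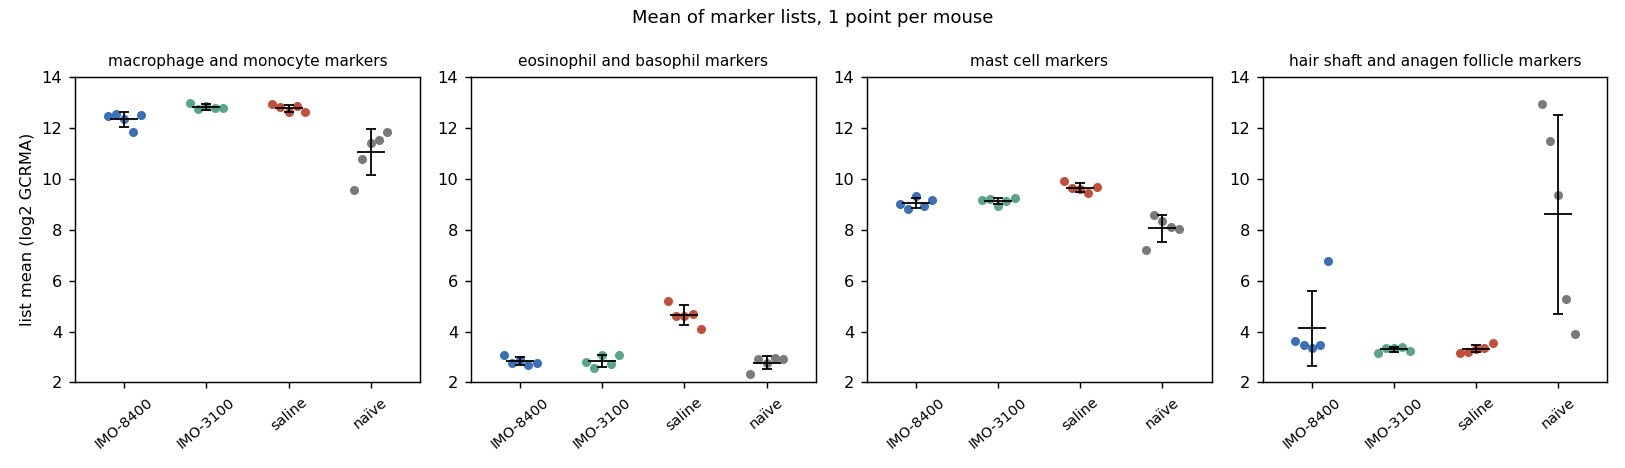
Mean expression (log2 GCRMA, vertical axis) of 4 marker lists in IMO-8400, IMO-3100, saline and naïve mice, with 1 point per mouse and bars for the mean ± SD (n = 5). Saline mice sit above the other groups for eosinophil and basophil markers and for mast cell markers, and naïve mice spread widely for hair follicle markers.

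Markers of the cells that make or answer these genes moved as well, and their part in the results above was not tested. Of 13 macrophage and monocyte markers 5 were higher in saline than in naïve mice, and their mean lay between 12.62 and 12.94 in saline mice, against 9.58 and 11.86 in naïve mice. Against saline, 1 was lower with IMO-8400 (Itgam, log2 FCH -1.93, adjusted p = 0.0499 in limma) and 0 were called in limma with IMO-3100 (1 with an unadjusted p under 0.05). The list mean lay between 11.84 and 12.55 in IMO-8400 mice and between 12.73 and 13.00 in IMO-3100 mice. Summed on the linear scale these markers gave 107678 to 141040 in IMO-8400 mice, 148676 to 168127 in IMO-3100 mice, 135906 to 159156 in saline mice and 42062 to 138900 in naïve mice.

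The basophil protease gene Mcpt8 read 9.38, 8.15, 8.35, 8.35 and 6.37 in saline mice, and between 2.05 and 2.36 in the other 15 mice. This was at least 34.8-fold higher in saline mice than in each other group (adjusted p = 7.85e-10 against naïve, and 2.14e-09 for IMO-8400 and 1.67e-09 for IMO-3100 against saline, in limma). Of 5 eosinophil and basophil markers the defining eosinophil granule genes Epx and Prg2 lay near background in all groups. The other 3 were tested, and all 3 were called lower with each antagonist than with saline. Siglecf, a surface receptor of mouse eosinophils, averaged 3.85 in IMO-8400 mice, 3.49 in IMO-3100 mice, 5.38 in saline mice and 4.26 in naïve mice, and was lower by log2 FCH -1.54 with IMO-8400 (adjusted p = 0.0346) and -1.89 with IMO-3100 (adjusted p = 0.0126 in limma). Its difference of 1.13 between saline and naïve mice did not pass (adjusted p = 0.0854 in limma). For Siglecf 2 of 5 IMO-3100 mice and 1 of 5 naïve mice lay below 3, so these sizes rest in part on values near background. Cd200r3, a receptor of basophils and mast cells, was higher in saline than in naïve mice (log2 FCH 2.13) and lower with IMO-8400 (-1.54) and with IMO-3100 (-1.07) than with saline. The list summed to 37.8 to 61.6 in IMO-8400 mice, 34.4 to 62.7 in IMO-3100 mice, 153 to 860 in saline mice and 26.3 to 58.6 in naïve mice on the linear scale.

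Of 9 mast cell markers 5 were higher in saline than in naïve mice and 2, Hdc and Fcer1a, were lower with each antagonist than with saline. Hdc averaged 8.42 in IMO-8400 mice, 8.72 in IMO-3100 mice, 11.27 in saline mice and 5.99 in naïve mice, and Fcer1a 7.17, 7.76, 9.74 and 4.56. Basophils express both of these genes too, and which cells held their signal was not tested. The mast cell proteases Cma1 and Mcpt4 were not called against saline. The list mean lay between 8.81 and 9.34 in IMO-8400 mice, 8.94 and 9.23 in IMO-3100 mice, 9.45 and 9.90 in saline mice and 7.19 and 8.59 in naïve mice. Of 7 neutrophil markers tested 6 were higher in saline than in naïve mice, and against saline 4 were lower with IMO-8400 and 3 with IMO-3100. Of 7 T cell and innate lymphoid markers 4 were higher in saline than in naïve mice, and 2 were lower with each antagonist.

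Keratinocyte markers were high in all mice, with a list mean between 14.28 and 14.45 in IMO-8400 mice, 14.07 and 14.33 in IMO-3100 mice, 13.59 and 14.08 in saline mice and 14.01 and 14.34 in naïve mice. Of 9 such genes 2 were lower in saline than in naïve mice, and 1 was higher with each antagonist than with saline. That gene was Lor, which encodes loricrin of the cornified envelope and averaged 14.89 in IMO-8400 mice, 14.35 in IMO-3100 mice, 12.54 in saline mice and 14.58 in naïve mice. It was lower in saline than in naïve mice (log2 FCH -2.04, adjusted p = 1.56e-05), and higher with IMO-8400 (2.35, adjusted p = 2.4e-05) and IMO-3100 (1.82, adjusted p = 0.000239 in limma) than with saline. Krt15, a basal keratin, was lower in saline than in naïve mice (log2 FCH -1.04). The calls of Tslp had the same direction as those of Lor, and 7 of the 9 keratinocyte markers were not called in saline against naïve mice. Among these, Krt1 averaged 14.13 in saline and 13.47 in naïve mice, and Krt14 14.80 and 14.50, the opposite direction. Krt10 (13.81 and 14.33), Ivl (13.53 and 13.82), Trp63 (13.55 and 13.72) and Dsp (14.60 and 14.73) were lower in saline mice, as Lor was. Krt5 averaged 14.30 and 14.31. A link of Tslp to Lor or to keratinocytes was not tested. Hair follicle markers spread widely among naïve mice. Of 15 such genes 14 were lower in saline than in naïve mice, and their mean lay between 3.17 and 3.53 in saline mice, against 3.92 and 12.94 in naïve mice. Naïve replicate 1 had the highest hair markers and the lowest macrophage, mast cell and T cell marker means of all naïve mice, and it was also the lowest naïve mouse for Il33, Tslp, Retnla, Mgl2, Il13ra2 and the tested probe-sets of Il13ra1. All 4 adipocyte markers tested were lower in saline than in naïve mice, and 2 of them were higher with each antagonist than with saline. These were the adipokine gene Adipoq (log2 FCH 1.09 with IMO-8400 and 1.03 with IMO-3100) and the lipid droplet gene Cidec (1.74 with IMO-8400 and 1.36 with IMO-3100). The adipocyte list mean lay between 10.73 and 11.19 in IMO-8400 mice, 10.38 and 11.04 in IMO-3100 mice, 9.11 and 10.31 in saline mice and 11.98 and 12.30 in naïve mice. Of 7 skeletal muscle markers 2, the myosin genes Myh4 and Myh2, were lower in saline than in naïve mice, and 3, Myh4 (log2 FCH 1.27), Myh2 (1.39) and Actn3 (1.08), were higher with IMO-8400 than with saline, while 0 were called with IMO-3100 in limma (4 with an unadjusted p under 0.05).

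Genes with the most similar pattern to each member were found by Pearson correlation over the 20 arrays among 13731 genes, as a description, since the arrays share 4 groups. Il13ra2 was most like Ctla4 (r = 0.97), Lat (0.95) and Skap1 (0.95). Chil3 was most like Il18bp (0.95), Clec5a (0.94) and Entpd7 (0.93), and Il33 like Klrb1a (0.91), AI839979 (0.91) and Srgn (0.91). Retnla was most like Slc5a3 (0.93), Fndc4 (0.92) and Carns1 (0.91), Mgl2 like Adig (0.91), Fgfr1 (0.91) and St3gal3 (0.90), and Tslp like Crebl2 (0.94), Chp2 (0.94) and Foxred2 (0.92). Arg1 had the lowest likeness to any gene, with Slc9b2 (0.75), Dsc2 (0.74) and Tmem260 (0.73).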

How the data were processed

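Skin RNA of 20 mice was measured on 1 Affymetrix array each. The authors normalized the arrays with GCRMA, of a version that the sources used here do not give, and deposited expression values on the log2 scale, which were used as they are. Array medians lay between 6.086 and 6.286, and the number of arrays limits the precision. No detection calls are in the table, so near background means that all 5 arrays of a group lay below 3. Fold changes against such a group are lower bounds, with its values raised to 3. Probe-sets were named by the platform annotation (34958 with 1 symbol, 932 with several, 9211 with none), and those with several, such as 1 for Chil3 and Chil4, were left out. Of the probe-sets with 1 symbol, 34754 matched RefSeq by Entrez identifier and no symbol changed.

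The filter of the methods asks for values above 2 on 3 or more arrays and for an SD over 0.1. Since the lowest value exceeds 2, all 45101 pass the first part, and the SD alone left 30960. A model of 4 group means was fitted with limma 3.58.1 (R 4.3.3, lmFit and eBayes), with Benjamini-Hochberg adjustment over all tested probe-sets and 6 comparisons. Intervals are 95% intervals of limma. The fit was also run on simulated data, with known changes placed only in probe-sets of clear signal and small spread. That run therefore does not cover members with a wide spread, such as Chil3. Replicates are separate mice, numbered 1 to 5 within a group in the order of their records.

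Members, gene lists and marker lists were chosen with earlier results of these data known. Named were all members and, of the lists, up to 4 called genes with the largest change per comparison and a few set genes. Further called genes were named because counts were small, after their values were seen. A gene in a list stands for its probe-set with the highest mean. Promoters come from RefSeq (GRCm38.p6). Alternatives were no filter, quantile normalization, a stricter filter (over 4 on 5 or more arrays), a floor of 4, arrays scaled to 1 common 75th percentile, a fit of the 2 groups alone, trend and robust estimation, leaving out naïve replicates 1 and 2, the mean of hair genes as a covariate, and leaving out each mouse.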

Additional observations from a re-analysis of the deposited data

Results flagged for a closer look

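In groups of 5 mice the lowest or highest value was set against the nearest other value of its group, and a gap whose share of the group's range passed Dixon's 95% critical value for 5 samples was taken as standing apart. Chance marks about 1 group in 20 this way. Of 48 groups of member probe-sets, 8 were marked, and Il4 in IMO-3100 mice (2.60 to 2.61) was passed over for its narrow range. The groups are not independent, since 4 of the probe-sets belong to Il13ra1 and the same mouse enters every probe-set. In 6 of them naïve replicate 1 was the lowest mouse. Its gap was 0.9401 of the range for Retnla (12.60, nearest 14.54), 0.7114 for Mgl2 (9.72, nearest 11.69), 0.802 for Il33 (8.19, nearest 10.50) and 0.7844 for Il13ra2 (7.51, nearest 8.74). For Il13ra1 it was 0.8554 on 1454783_at (10.95, nearest 11.80) and 0.7193 on 1427164_at (9.04, nearest 10.05). IMO-8400 replicate 4 was lowest for Chil3, with a gap of 0.8368 of the range (7.80, nearest 9.33). Saline replicate 1 was highest for Il4, with 0.7399 (2.86, nearest 2.61), a difference among values near background.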

How the results depend on the processing

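Of the 26 member calls over the 6 comparisons, 9 were lost in at least 1 alternative and none turned direction in those run. Counts of called members with 1 mouse left out lay between 7 and 8 for saline against naïve (8 with all mice), 5 and 7 for IMO-8400 against saline (7), 2 and 5 for IMO-3100 against saline (4), 2 and 3 for IMO-8400 against naïve (3) and 3 and 5 for IMO-3100 against naïve (4). IMO-3100 against naïve gave 2 calls without naïve replicates 1 and 2, and 2 with hair genes as a covariate. Uncalled differences changed sign in a few settings. With hair genes as a covariate Chil3 differed by 0.028 between IMO-8400 and IMO-3100, and IMO-8400 against naïve gave -0.32 for Il33, -0.89 for Tslp, -0.13 for Il13ra1 on 1454783_at and -0.081 on 1427165_at. Without naïve replicates 1 and 2 IMO-8400 against naïve gave -0.25 for Il33, -0.53 for Tslp and -0.016 for Il13ra1 on 1454783_at. With 1 mouse left out, values lay between -0.23 and 0.51 for Arg1 in saline against naïve, -0.66 and 0.073 for Arg1 in IMO-8400 against IMO-3100, -0.36 and 0.46 for Retnla and -0.047 and 0.13 for Il13ra1 on 1454783_at in IMO-3100 against saline, -0.30 and 0.42 for Il33 and -0.37 and 0.65 for Tslp in IMO-8400 against naïve, and -0.80 and 0.21 for Tslp in IMO-3100 against naïve. Without a filter the calls of Chil3 with IMO-3100 against saline (adjusted p = 0.0783), Arg1 with IMO-8400 against saline (0.0531), Tslp in saline against naïve (0.0573) and Chil3 with IMO-8400 against naïve (0.0742 in limma) were lost. Fitted on their 2 groups alone, those of Arg1 (0.0663), Tslp (0.113) and Chil3 against naïve with IMO-8400 (0.143) and IMO-3100 (0.0935 in limma) were lost, and with a floor of 4 that of Chil3 with IMO-8400 against naïve (0.0547 in limma). The cause was not tested. The Il13ra1 contrast between saline and naïve mice, recomputed after the data were seen, lay between 1.29 and 1.44 with 1 mouse left out. No paired analysis was possible because the records give the groups no shared replicate numbers.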

Other observations

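Single saline mice stood out for low genes near Arg1 and Il4, which were picked after their values were seen. Nos2, the inducible nitric oxide synthase that uses arginine as arginase does, lay at the lowest value of the arrays in 18 mice and read 3.6 in saline replicate 2 and 5.64 in saline replicate 3. These are the 2 saline mice with the highest Arg1 (13.38 and 12.78), the highest Arg2 of the saline group (10.94 and 11.40) and the lowest Mgl2 (6.35 and 7.84). Nos2 was not called in saline against naïve mice (adjusted p = 0.0815 in limma). Il13 exceeded 3 in 1 of 20 mice, saline replicate 5 (5.30). The same mouse read 7.22 for Chil4, the gene of the chitinase-like protein Ym2, which exceeded 3 otherwise only in saline replicate 1 (4.03), and it had the lowest Chil3 (11.42) and the highest Ccl17 (10.60) of the saline mice. These are values of single arrays, and no test was made of them.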
